A study of Bos grunniens with 12 samples.

Results

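The interferon regulatory factors (IRFs) were examined in the testes of yaks before and after sexual maturity. Every gene of the deposited expression table whose symbol is IRF followed by 1 digit was taken, which gave 12 gene identifiers of 20953 in the table. They stand under 8 symbols. The rule itself reads symbols and no measured value. Of the 12 identifiers, 6 had a mean level high enough to be tested, and 2 genes, IRF1 and IRF2, carried an m6A peak that the authors called different between the ages.

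IRFs are transcription factors that share a DNA-binding domain at the amino end and bind interferon-stimulated response elements. Virus sensors and interferon receptors act on them, and they switch on interferon genes and the antiviral and antigen-presentation genes that interferons induce. IRF1 is best known as an activator induced by interferon-gamma, and IRF2 as its antagonist, which binds the same elements.

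The animals were 6 healthy yaks (Bos grunniens). The study describes the Y group of 3, 1.5 years old, as sexually immature and the M group of 3, 5 years old, as mature. From every testis a library of fragments pulled down with an antibody against m6A (IP) and one of the fragments before that step (input) were sequenced, 12 libraries in all, and the levels below are from the 6 input libraries. No genotype or treatment is named for either group. By the sample record, testes of the Y group came from castration and those of the M group from slaughtered animals, so age and the way of collection cannot be told apart. Groups were taken from the sample titles, and the stage that the record's own stage field gives is the reverse of the title's in all 12 libraries. The record also swaps the letters M and Y, which are used here by the age in the title, and every direction below would turn if the titles were wrong.

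Levels are in FPKM, that is, fragments per length of transcript and per mapped fragment of the library, so that genes can be compared with each other. The FPKM of a library summed to between 116187 and 139921, and the depth behind single values is unknown. M replicate 2 was the M library nearest to the Y libraries over all tested genes (Pearson r from 0.942 to 0.947 on log2 values), and M replicate 1 was the farthest (0.817 to 0.837). The markers of haploid germ cells went against the order of the ages: the elongating spermatid markers, 4 of 9 listed being in the table, summed to between 1154 and 1195 FPKM in the Y group and between 263 and 849 FPKM in the M group. Spermatid transcripts were thus abundant in the libraries of the group described as immature, which is at odds with that description. In bulk tissue, fewer cells of a type and less RNA per cell cannot be told apart. Whether the titles of the libraries have a part in this order was not tested.

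The sequences below are the study's primers for quantitative PCR of IRF1 and IRF2, shown because they mark the transcripts of the 2 members that carry a peak. They are written 5′ to 3′ and each is 20 bases long, with a GC content of 50% to 60%.
IRF1 forward: acacaggccgatacaaagca
IRF1 reverse: tcggctggacttggactttc
IRF2 forward: acctgacccaaaaacgtgga
IRF2 reverse: gtcaggaccgcatactcagg

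IRF1 and IRF2 were the members with a differential m6A peak, 1 each. N6-methyladenosine (m6A) is a methyl mark on adenosines of mRNA, and a peak is a stretch that is richer in the IP than in the input library. On IRF1 (ENSBGRG00000003116, plus strand of chromosome 8, 23319050 to 23325195 on LU_Bosgru_v3.0) the peak ran from 23323191 to 23323809, which is 619 bp. It was annotated to exon 4 of the 8 exons of the transcript. It began 4141 bp after the start of the 6146 bp gene and ended 1386 bp before its end. On IRF2 (ENSBGRG00000020711, plus strand of chromosome 28, 41240543 to 41334600) the peak ran from 41333515 to 41333713, which is 199 bp in the 3′ UTR and 887 bp before the end of the 94058 bp gene. By the annotation the peaks thus fell in different parts of the transcripts, an internal exon in IRF1 and the 3′ UTR in IRF2. The annotation names an exon without its bounds, so a peak placed in an exon here and below may also cover intron. The IRF1 peak was wider than 61.5% of the 1438 differential peaks of the table and the IRF2 peak wider than 19.5%, beside a median width of 398 bp. No other differential peak overlapped either gene. Among all tested genes, 9.29% had a differential peak. The table gives neither the direction of the change nor a value per animal, so no spread between animals could be set beside these 2 peaks.

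**Figure D1:**
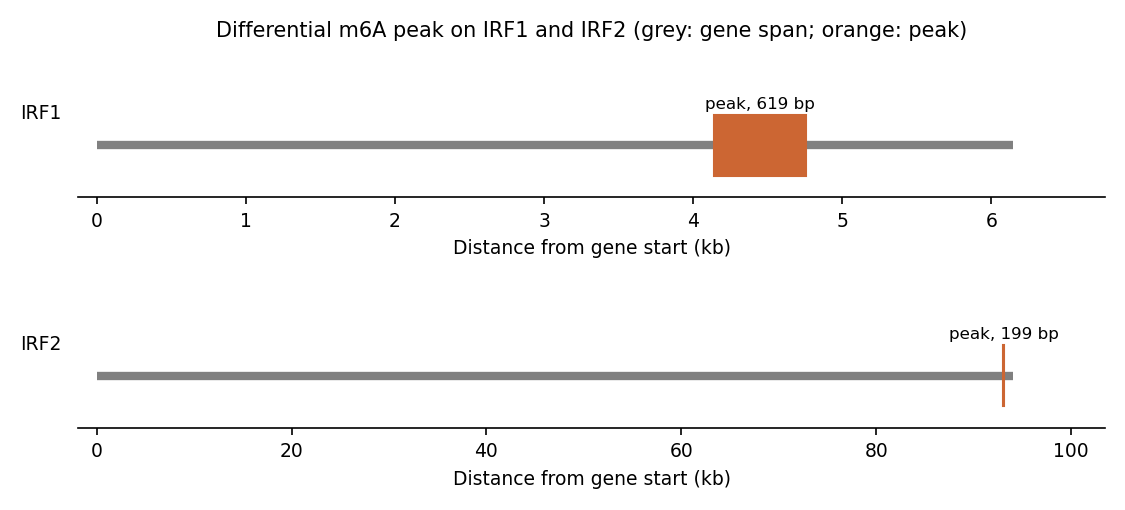
Position of the differential m6A peak (orange) along the span of IRF1 and of IRF2 (grey), as distance from the gene start in kb, introns included; a thin outline is added so that the IRF2 peak can be seen. The IRF1 peak of 619 bp starts 4141 bp into the gene, and the IRF2 peak of 199 bp lies 887 bp before the end of the gene.

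IRF1, IRF2, IRF3 and IRF9 had higher levels in every M library than in any Y library, and IRF8 did not separate the ages. The test was limma on log2(FPKM + 0.1) over the 12437 genes with a mean of at least 0.5 FPKM, two-sided, with p-values adjusted over all of them by the Benjamini-Hochberg method, and differences are M minus Y. By this test 0 of the 6 tested IRF identifiers had an adjusted p under 0.05, where 0.0322% of all tested genes did (4 genes). At an unadjusted p under 0.05, 4 of the 6 were higher in the M group (14.2% of all tested genes) and 0 were lower (10.9%), where 25.1% of all tested genes had such a p in either direction. The M libraries lay above the Y libraries without overlap for 4 of the 6, against 19.8% of all tested genes, and below them for 0 of the 6, against 13.9%. The difference between ages thus did not pass the test for any member when all 6 libraries were used. Of the 4 higher members, IRF9 entered the test only through the M group, from a Y mean of 0.448 FPKM. With a minimum mean of 1 FPKM, 3 members had an unadjusted p under 0.05. The 6 tested identifiers include ENSBGRG00000013514, whose function terms are not those of a transcription factor.

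IRF1, the activator, was at 2.57, 2.86 and 2.47 FPKM in Y replicates 1 to 3 and at 9.14, 4.74 and 6.47 FPKM in M replicates 1 to 3. All 3 M libraries were above all 3 Y libraries, and the M libraries were the more spread. The mean was 2.63 ± 0.203 FPKM (SD, n = 3) in the Y group and 6.78 ± 2.22 FPKM (SD, n = 3) in the M group, a ratio of 2.58. On the log2(FPKM + 0.1) scale the difference was 1.29 (standard error 0.24, 95% interval 0.71 to 1.86), with an unadjusted p of 0.00105 and an adjusted p of 0.154 in limma. An exact permutation test over the samples, two-sided, gave 0.1, the smallest p that 3 against 3 libraries allow.

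IRF2, the antagonist, was at 1.00, 1.58 and 1.34 FPKM in Y replicates 1 to 3 and at 3.70, 1.67 and 2.27 FPKM in M replicates 1 to 3. The groups did not overlap, but M replicate 2 stood only just above Y replicate 2. The mean was 1.31 ± 0.288 FPKM (SD, n = 3) against 2.55 ± 1.05 FPKM (SD, n = 3), and the log2 difference was 0.86 (standard error 0.32, 95% interval 0.11 to 1.61; limma, unadjusted p 0.0294, adjusted p 0.171). Without M replicate 1 the difference was 0.56, so its size rests in part on that library.

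The balance of the pair was read within each library as the ratio of the IRF1 level to the IRF2 level, both in FPKM. It was 2.56, 1.81 and 1.84 in Y replicates 1 to 3 and 2.47, 2.84 and 2.85 in M replicates 1 to 3. The ratio overlapped between the groups, at 2.07 ± 0.424 (SD, n = 3) and 2.72 ± 0.217 (SD, n = 3), with an exact permutation p of 0.2 (two-sided). IRF1 was thus the more abundant of the 2 in every library, and a change of the balance with age was not detectable with these animals.

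IRF3, which is present before infection and is activated by phosphorylation to switch on type I interferon genes, was at 2.78, 3.47 and 3.99 FPKM in the Y libraries and at 6.00, 4.50 and 5.92 FPKM in the M libraries. Again no M library overlapped the Y group, and M replicate 2 was the lowest of its group. The means were 3.41 ± 0.608 and 5.47 ± 0.841 FPKM (SD, n = 3 each), and the log2 difference was 0.67 (standard error 0.20, 95% interval 0.21 to 1.13; limma, unadjusted p 0.0108, adjusted p 0.154).

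IRF9, the DNA-binding subunit that joins STAT proteins in the complex formed after type I interferon signalling, was at 0.406, 0.319 and 0.620 FPKM in the Y libraries and at 1.46, 0.774 and 1.23 FPKM in the M libraries. These are low levels, and the groups again stood apart; only the M group lifted the mean of IRF9 over the minimum for a test. The means were 0.448 ± 0.155 and 1.16 ± 0.350 FPKM (SD, n = 3 each), and the log2 difference was 1.19 (standard error 0.35, 95% interval 0.37 to 2.02; limma, unadjusted p 0.0111, adjusted p 0.154).

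**Figure D2:**
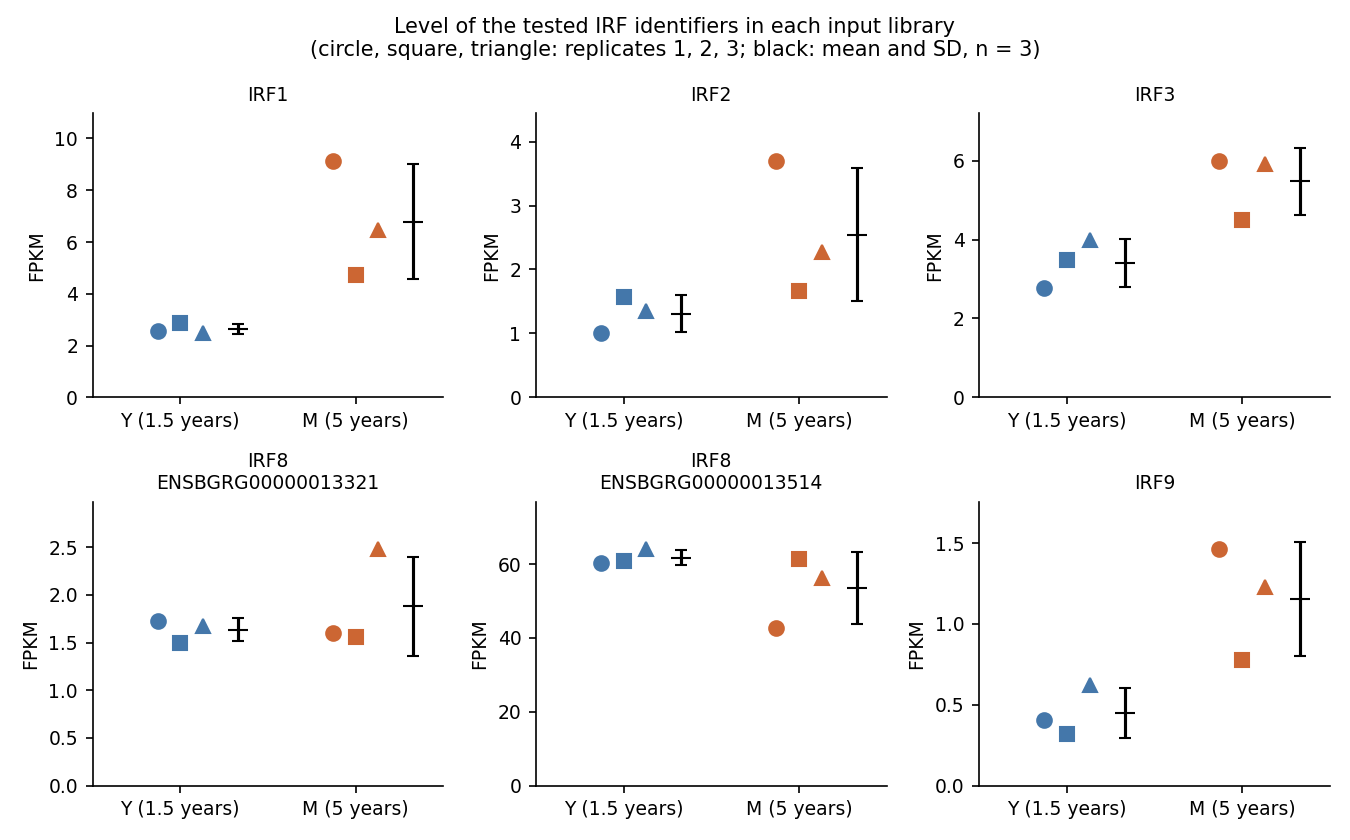
Level in FPKM of the 6 tested IRF identifiers in each input library of the Y group (blue) and the M group (orange), with the mean and SD of each group in black (n = 3). For IRF1, IRF2, IRF3 and IRF9 all M libraries lie above all Y libraries and M replicate 2 (square) is the lowest M library; for the 2 IRF8 identifiers the groups overlap.

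In IRF1, IRF2, IRF3 and IRF9 alike, M replicate 1 was the highest M library and M replicate 2 the lowest. Without M replicate 2 the same limma test gave all 4 an adjusted p under 0.05: IRF1 rose by 1.51 on the log2 scale (adjusted p 0.0139), IRF2 by 1.12 (0.0428), IRF3 by 0.80 (0.0356) and IRF9 by 1.43 (0.0380). In that fit, 10.9% of all tested genes passed as higher in the M group, and the M group then held 2 libraries. Leaving out any other library left 0 IRF identifiers past the test. M replicate 2 therefore decides whether the difference of these 4 members passes.

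**Figure D3:**
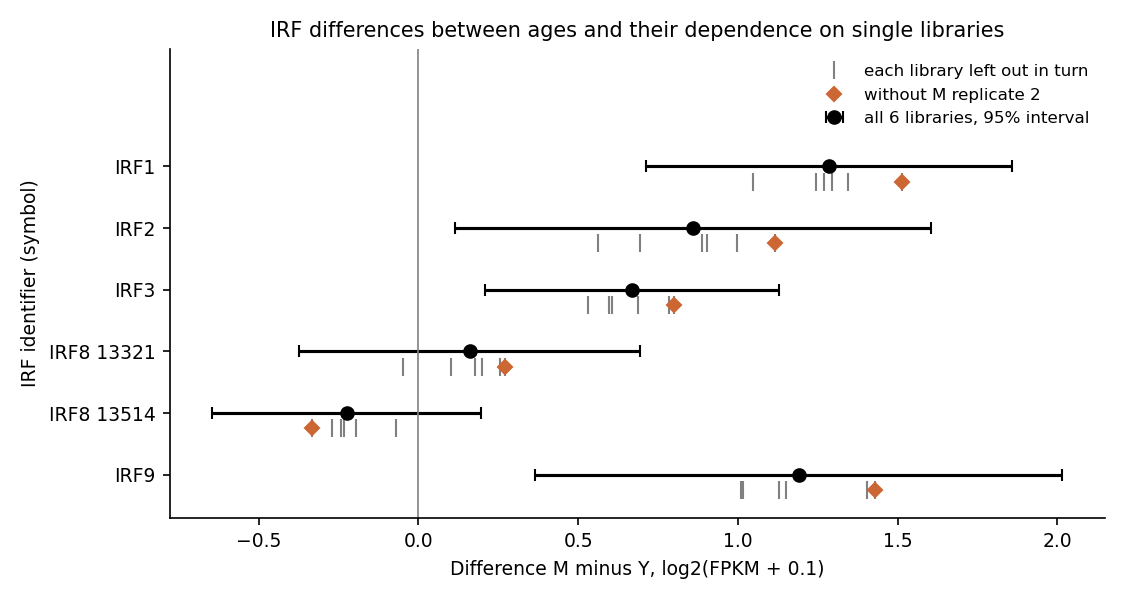
Difference M minus Y on the log2(FPKM + 0.1) scale for the 6 tested IRF identifiers, with the 95% interval from all 6 libraries (black), the value with each library left out in turn (grey ticks) and the value without M replicate 2 (orange). The intervals of IRF1, IRF2, IRF3 and IRF9 lie above 0 and those of both IRF8 identifiers span it; leaving out M replicate 2 moves IRF1 from 1.29 to 1.51.

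IRF8, a factor of the myeloid and B lineages, stands on 2 identifiers. The first, ENSBGRG00000013321, carries terms of a DNA-binding factor in the table and was at 1.73, 1.50 and 1.68 FPKM in the Y libraries and 1.60, 1.56 and 2.48 FPKM in the M libraries. The groups overlapped, with a log2 difference of 0.16 (95% interval -0.37 to 0.69; limma, adjusted p 0.661). The second, ENSBGRG00000013514, was far higher, at 60.2, 60.9 and 64.1 FPKM in the Y libraries and 42.6, 61.4 and 56.3 FPKM in the M libraries. Its log2 difference was -0.22 (limma, adjusted p 0.435), and M replicate 1 was the lowest library. The function terms of this second identifier are those of cytochrome c oxidase, not of a transcription factor. In RefSeq, whose yak assembly Bosgru_T2T1.0 differs from the one used here and served for gene order only, IRF8 lies next to COX4I1, a subunit gene of that oxidase, and no gene of the table stands under COX4I1. The level of ENSBGRG00000013514 is therefore given under its identifier and not as a level of IRF8.

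The symbol IRF4, a lymphocyte factor, stands on 4 identifiers, none of which passed the minimum of 0.5 FPKM. The highest, ENSBGRG00000012625, was at 0.510, 0.725 and 0.584 FPKM in the Y libraries and 0.442, 0.327 and 0.287 FPKM in the M libraries, and its terms are those of a protein tyrosine phosphatase. DUSP22, a phosphatase gene that neighbours IRF4 in RefSeq, has no gene under its symbol in the table. Another pair of identifiers carries an olfactory pathway term: ENSBGRG00000012793 was listed at 0 in all libraries, and ENSBGRG00000012830 was above 0 in Y replicate 2 (0.136 FPKM) and M replicate 3 (0.0661 FPKM) only. ENSBGRG00000012510, with the Th17 cell pathway among its terms, was above 0 in M replicate 1 only, at 0.0833 FPKM. The 4 IRF identifiers whose terms do not name IRF-type functions were thus 3 of the 4 IRF4 identifiers and ENSBGRG00000013514. Near the floor of the table, IRF5, which acts below Toll-like receptors in myeloid cells, was at 0.0776, 0.0937 and 0.0703 FPKM in the Y libraries and 0.292, 0.112 and 0.146 FPKM in the M libraries.

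The order by mean FPKM leaves out the 4 identifiers whose terms do not name IRF-type functions. In the Y group it ran IRF3 (3.41), IRF1 (2.63), IRF8 (1.64), IRF2 (1.31), IRF9 (0.448) and IRF5 (0.0806). IRF3 and IRF1 overlapped in their libraries, as did IRF8 and IRF2. In the M group the order was IRF1 (6.78), IRF3 (5.47), IRF2 (2.55), IRF8 (1.88), IRF9 (1.16) and IRF5 (0.184). IRF1 and IRF3 again overlapped, and so did IRF2 and IRF8. Most members were thus transcripts of middle or low level in this tissue: 67.8% of the genes above 0 had a lower mean than IRF1, 66.5% a lower mean than IRF3, 50.3% than IRF2 and 37.2% than IRF9.

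Over the 6 libraries, the tested genes whose log2 level followed IRF1 most closely were ZNF148, ARPP21, BRCA2, LYSMD3 and ARL6IP1, with Pearson r from 0.997 to 0.999. Those closest to IRF2 were P2RY2, PARP1, UGCG, MRTO4 and EPHX2, with r from 0.995 to 0.997. The same 6 libraries and the same difference between ages stand behind each of these values, and r was over 0.95 for 804 tested genes with IRF1 and for 436 with IRF2. Among the members, r with IRF1 was 0.93 for IRF2, 0.91 for IRF9, 0.90 for IRF3 and 0.30 for ENSBGRG00000013321 (IRF8). ZNF148, the closest to IRF1, was at 5.20, 5.34 and 5.17 FPKM in the Y libraries and 9.63, 6.88 and 8.05 FPKM in the M libraries, the same order of M libraries as IRF1.

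The genes upstream and downstream of the IRFs were taken as 6 lists of 128 symbols, of which 86 are in the table and 64 were tested. By limma, 0 of the 64 had an adjusted p under 0.05, and at an unadjusted p under 0.05, 24 were higher in the M group (37.5%, against 14.2% of all tested genes) and 0 were lower. Of the 64, 9 passed the minimum of 0.5 FPKM only through the M group, 6 of them among the 24 (PTPN6, IFI6, SAMD9, PARP14, ERAP1 and CXCL11). With every gene above 0 in any library tested, 32 of the 86 were higher and 0 lower. Of all 18252 genes tested in that setting, 2108 were higher and 1575 lower. The median log2 difference of the 64 was 0.50, beside 0.04 over all tested genes. The M libraries were above the Y libraries without overlap for 35 of the 64 and below for 1, against 19.8% and 13.9% of all tested genes. Where a symbol stands on several identifiers, the one with the highest mean was taken. With only the symbols on 1 identifier, a choice made after seeing the data, 17 were higher at an unadjusted p under 0.05. The share of such symbols among all tested genes was not computed, so this count has no background beside it.

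The list of interferons and their receptors had a median of 0.28 on the log2 scale. Of its 5 tested genes, 1 was higher at an unadjusted p under 0.05, against 14.2% of all tested genes. It was IFNGR2, the signalling chain of the interferon-gamma receptor, at 1.48, 1.61 and 1.48 FPKM in the Y libraries and 3.65, 2.12 and 3.63 FPKM in the M libraries (log2 difference 0.95, limma p 0.00511, adjusted p 0.154). IFNAR1, a chain of the type I interferon receptor, had a log2 difference of 0.32 (adjusted p 0.242). IFNG, the gene of interferon-gamma itself, was listed at 0 in all Y libraries and at 0.140, 0.137 and 0.126 FPKM in the M libraries, below the minimum for a test. The symbol IFNE stands on 4 identifiers, the highest at 90.4 ± 5.04 and 69.2 ± 9.87 FPKM (SD, n = 3 each), and which of them is the gene of interferon epsilon is uncertain.

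In JAK-STAT signalling, 3 of 10 tested genes were higher at an unadjusted p under 0.05, against 14.2% of all tested genes. The list median was 0.29. STAT2, which type I interferon receptors activate and which joins IRF9 in one complex, was at 1.18, 2.00 and 1.64 FPKM in the Y libraries and 3.22, 2.29 and 2.96 FPKM in the M libraries (log2 difference 0.79, limma adjusted p 0.154). STAT2 also carried a differential m6A peak, of 1517 bp and annotated to exon 21 of 24. For both STAT2 and IRF9, all M libraries thus lay above all Y libraries, and STAT2 alone of the pair carried a peak. PTPN6, a phosphatase of blood cells, had a log2 difference of 1.70 (adjusted p 0.154) from a Y mean of 0.272 FPKM, and JAK1, a receptor kinase with a differential peak in exon 3 of 26, one of 0.28 (adjusted p 0.282).

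Of the sensors and kinases upstream of the IRFs, 4 of 13 tested genes were higher at an unadjusted p under 0.05, against 14.2% of all tested genes. The list median was 0.23. With only the symbols on 1 identifier, 2 of 9 were higher. MAVS, the mitochondrial adaptor through which RNA sensors activate IRF3, was at 4.11, 4.57 and 4.03 FPKM in the Y libraries and 10.4, 7.35 and 8.39 FPKM in the M libraries. Its log2 difference was 1.01 (limma p 0.000499, adjusted p 0.154). TICAM2, an adaptor of Toll-like receptor 4 with a differential peak in its exon, had a log2 difference of 0.70 (adjusted p 0.154), and MYD88, an adaptor of most Toll-like receptors with a peak in exon 4 of 6, one of 0.79 (adjusted p 0.239) with overlapping groups. TLR7, which is among the 4 higher genes, is a symbol on 46 identifiers. The one taken was at 115 ± 30.0 and 224 ± 70.7 FPKM (SD, n = 3 each), so its value cannot be read as that of the receptor. IFIH1, an RNA sensor, stood lower in 2 of the M libraries, at 1.66, 4.44 and 1.77 FPKM against 4.09, 4.20 and 4.54 FPKM in the Y libraries (log2 difference -0.83, adjusted p 0.203), and M replicate 2 was again the M library nearest to the Y group.

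For partners and cofactors, 2 of 7 tested genes were higher at an unadjusted p under 0.05, against 14.2% of all tested genes. The list median was 0.33. The 2 higher genes belong by name to the IRF2-binding protein family. They were IRF2BPL with a log2 difference of 0.66 and IRF2BP2 with 0.67 (limma adjusted p 0.154 and 0.158). Of the acetyltransferases that serve IRFs as coactivators, EP300 had a log2 difference of 0.33 (adjusted p 0.232), and CREBBP, with a differential peak in exon 33 of 33, one of 0.11 (adjusted p 0.601).

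Of the interferon-stimulated genes, 6 of 15 tested were higher at an unadjusted p under 0.05, against 14.2% of all tested genes. The list median was 0.56. The smallest p-values were those of ADAR, an RNA-editing enzyme (log2 difference 0.96), PARP14, an ADP-ribosyltransferase (1.43), and IFI6, an antiviral membrane protein (1.34), each with an adjusted p of 0.154 in limma. PARP14 and IFI6 passed the minimum for a test only through the M group, and with a minimum of 1 FPKM the count for the list was 1 in place of 6. IFIT5, which binds viral RNA, carried 2 differential peaks, both in exon 2 of 2. It was at 4.13, 3.93 and 4.10 FPKM in the Y libraries and 8.21, 4.38 and 5.66 FPKM in the M libraries (log2 difference 0.53, adjusted p 0.206).

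The list of IRF1 targets of antigen presentation and inflammation had a median of 0.64. Of its 15 tested genes, 8 were higher at an unadjusted p under 0.05, against 14.2% of all tested genes. CXCL9, a chemokine induced by interferon-gamma, was at 0.361, 0.485 and 0.830 FPKM in the Y libraries and at 13.7, 3.28 and 6.96 FPKM in the M libraries. The groups stood well apart, with a log2 difference of 3.45 (standard error 0.51, limma p 0.000243, adjusted p 0.129). CXCL10, its close relative, was at 0.215, 0.465 and 0.910 FPKM and at 6.58, 1.14 and 3.86 FPKM (log2 difference 2.50, adjusted p 0.154). Of the immunoproteasome subunits, PSMB8 had a log2 difference of 1.01 and PSMB10 one of 0.58 (adjusted p 0.154 each). CXCL9, CXCL10, PSMB8 and PSMB10 all had the order of M libraries seen for IRF1, replicate 1 highest and replicate 2 lowest. Other genes of the list did not, CXCL11 and IDO1 among them. The order was not particular to the list, since ZNF148 and the summed Sertoli markers had it too. The share of all tested genes with this order was not computed. Across the 6 lists, 6 of the 86 genes carried a differential peak, and among the 64 tested genes the share was 9.38%, beside the 9.29% of all tested genes. The symbols TLR7 and CDKN1A had a peak only on an identifier other than the one taken.

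**Figure D4:**
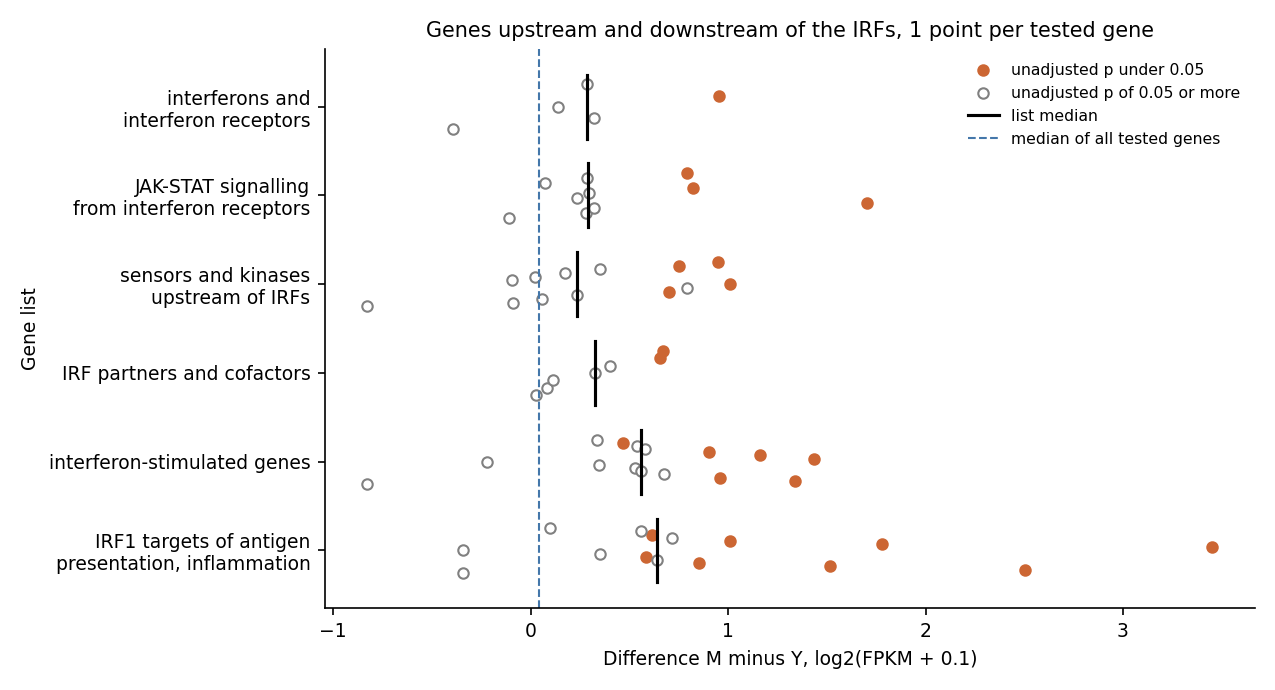
Difference M minus Y on the log2(FPKM + 0.1) scale of each tested gene in the 6 lists around the IRFs, with filled points for an unadjusted p under 0.05 and a black bar at each list's median. Every list median, from 0.23 to 0.64, lies to the right of the median of all tested genes at 0.04 (dashed), and no filled point lies below 0.

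Markers of other cells moved with the same libraries. Of the lymphoid markers, 12 of 15 are in the table. At an unadjusted p under 0.05, 4 of 8 tested were higher, against 14.2% of all tested genes: PTPRC (0.574 ± 0.0815 against 2.04 ± 1.08 FPKM, SD, n = 3 each), LCK, NKG7 and PRF1. LCK and PRF1 passed the minimum for a test only through the M group, from Y means of 0.285 and 0.241 FPKM. The lymphoid sum over the 11 symbols on 1 identifier was 5.10 to 7.45 FPKM in the Y libraries and 8.31 to 16.5 FPKM in the M libraries. Within the M group it was highest in replicate 1 and lowest in replicate 2. With CD79B, on 3 identifiers, the sums were 68.2 to 75.7 and 65.7 to 73.3 FPKM. Of the macrophage markers, 8 of 10 are in the table. At the same p, 3 were higher (C1QA, C1QB and C1QC, against 14.2% of all tested genes) and 2 lower (CD163 and AIF1, against 10.9%). CD163 passed the minimum only through the Y group, with an M mean of 0.326 FPKM. The macrophage sums were 28.9 to 36.8 FPKM in the Y libraries and 42.4 to 49.7 FPKM in the M libraries. No blood cell marker of the table was at 0 in all libraries, and the part of these cells in the IRF differences was not tested.

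Somatic testis markers were also higher and spermatid markers lower. At an unadjusted p under 0.05, 14.2% of all tested genes were higher and 10.9% lower. Of the Sertoli markers, 6 of 7 were higher at this p, with sums of 78.6 to 92.4 FPKM in the Y libraries and 113 to 260 FPKM in the M libraries. INHA alone gave 62.1 of the mean Sertoli sum of 86.7 FPKM in the Y group and 131 of 171 FPKM in the M group. Of the peritubular and stromal markers, 5 of 7 were higher, with sums of 22.8 to 23.9 and 30.0 to 52.5 FPKM. All 4 elongating spermatid markers in the table and 3 of 5 round spermatid markers were lower, and TNP1, which packs spermatid DNA, was at 883, 852 and 879 FPKM in the Y libraries and 201, 641 and 550 FPKM in the M libraries. Of the other lists, 0 of 5 endothelial, 0 of 6 spermatogonia and 0 of 8 spermatocyte markers tested had an unadjusted p under 0.05, and of the Leydig markers 2 of 6 are in the table, of which STAR was lower. M replicate 1, the library with the highest IRF1 and IRF2, thus had the lowest TNP1, and M replicate 2, with the lowest IRF1 and IRF2 of its group, the highest TNP1 of its group; the part of this makeup in the IRF differences was not tested.

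**Figure D5:**
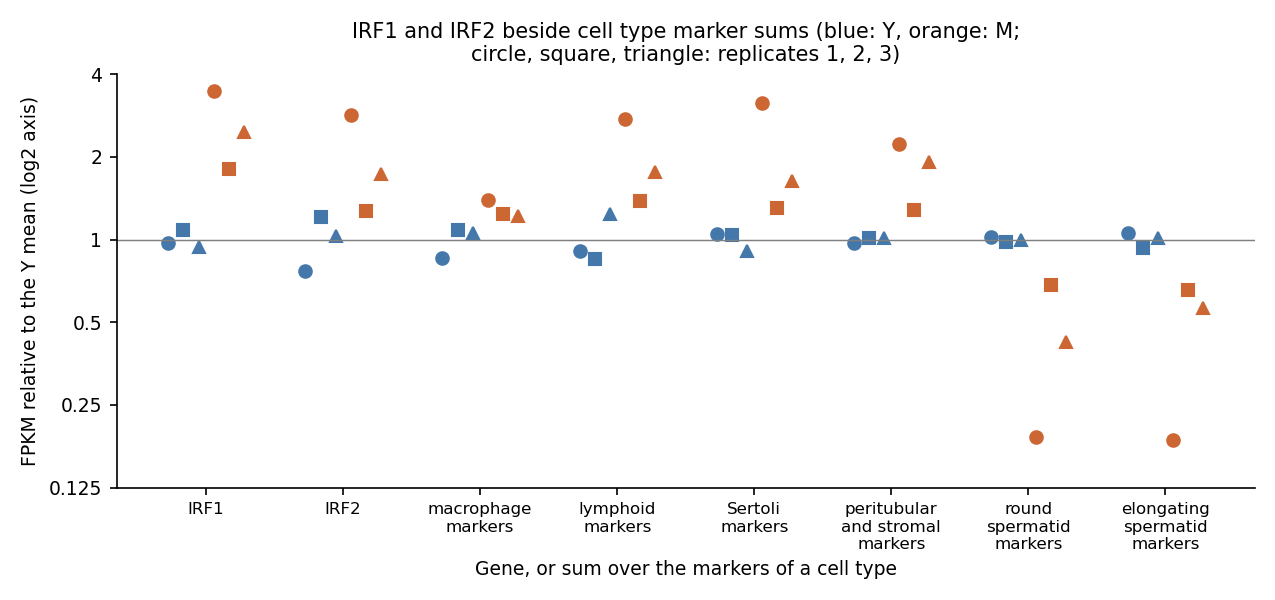
Level of IRF1 and IRF2 and summed level of the markers of 6 cell types in each input library, relative to the mean of the Y libraries on a log2 axis, for markers whose symbol stands on 1 identifier (blue, Y group; orange, M group). In the M group replicate 1 (circle) is farthest from the Y mean in every column, and replicate 2 (square) is nearest in every column but that of the macrophage markers.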

How the data were processed

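Input libraries of 6 testes were analysed, grouped by the age in the sample titles. The authors deposited FPKM values for the genes of each input library. These rest on reads trimmed with Trimmomatic, cleared of rRNA by SortMeRNA and mapped by HISAT2 (2.0.4 in the submitters' processing notes) to LU_Bosgru_v3.0, of which unique alignments were kept; what computed FPKM is not given in the sources used here. The table holds no fragment counts, so precision at low levels is unknown and no limit was set for a value of 0. MeTDiff gave the authors' peaks and their comparison between ages, and ChIPseeker the annotation; how the 3 animals of a group were combined in it is not stated. The peak table was used for positions only. Not analysed here were the peak lists of the single ages, values of the IP libraries and the reads.

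For genes with a mean of at least 0.5 FPKM, log2(FPKM + 0.1) was fitted by group in limma 3.58.1 under R 4.3.3, with lmFit and a trended eBayes, two-sided, with Benjamini-Hochberg adjustment over all 12437 tested genes. Adding 0.1 understates the change of low genes. The steps were tested on simulated data. Tables were made with Python 3.11.15, pandas 2.3.3, numpy 2.4.6 and scipy 1.17.1, and figures with matplotlib 3.10.9.

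The members and lists were chosen with earlier results of these data known. Named were every IRF identifier, in each of the 6 lists around the IRFs the 3 genes with the smallest p and any gene with a differential peak, the 5 tested genes with the highest r with IRF1 and with IRF2, and up to 3 genes of each of the 10 marker lists. IFNG, IFNE, IFNAR1, IFIH1, CXCL10, CXCL11, ERAP1, SAMD9, CD79B, the fourth lymphoid and the other macrophage markers named, the ratio of IRF1 to IRF2, and the reading of the function terms of the identifiers were chosen after their values were seen. Of the 13664 symbols, 3871 stand on more than 1 identifier. RefSeq names were matched by symbol, and no RefSeq coordinate was used. Some items that the rule selects are not reported here. Alternatives were pseudocounts of 1 and 0.01, other minimum levels, median ratio scaling, quantile normalization, eBayes without a trend, a replicate block and each library left out in turn. That the 3 libraries of a group come from 3 animals is taken from the labels.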

Additional observations from a re-analysis of the deposited data

How the results depend on the processing

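The log2 differences of IRF1 and IRF2 kept their direction under every alternative run. With each library left out in turn they lay between 1.05 and 1.51 and between 0.56 and 1.12, with the highest values, the only ones past the test, without M replicate 2; under the other alternatives they lay between 1.06 and 1.31 and between 0.59 and 0.90. Their adjusted p-values over all alternatives ran from 0.0139 to 0.373 and from 0.0428 to 0.377 in limma. The count of IRF identifiers past the test lay between 0 and 4 with a library left out and was 0 under every other alternative. The count with an unadjusted p under 0.05 lay between 3 and 4. The difference of ENSBGRG00000013321 (IRF8) changed sign without M replicate 3, to -0.047 in a range up to 0.27 with a library left out, and that of ENSBGRG00000013514 with quantile normalization, to 0.037; neither passed the test with all libraries, and the cause was not tested.

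Of all genes, 4 passed the test. The count was 2 with a pseudocount of 0.01, 2 with a minimum mean of 1 FPKM, 8 with every gene above 0 tested, 9 without the eBayes trend, and lay between 0 and 2526 with a library left out, the highest without M replicate 2. Genes with an unadjusted p under 0.05 numbered 3123, and between 1664 and 4996 with a library left out. Median ratio scaling moved the share of higher genes among them from 56.6% to 45.4% and the median difference of all tested genes from 0.04 to -0.02; under it 23 genes of the lists around the IRFs were higher at an unadjusted p under 0.05 and 2 lower, against 24 and 0. Lower genes of these lists numbered 1 with quantile normalization, 1 with the replicate block, 1 without M replicate 1 and 3 without M replicate 2, and 0 under the other alternatives. The total for the lists lay between 16 and 33 with a library left out and between 16 and 32 otherwise.

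With a replicate block, 1 gene of all tested passed, 0 IRF identifiers did, and IRF2 had an unadjusted p of 0.0556. The numbers do not pair the animals: the deviations of same-numbered libraries from their group means correlated at -0.022, -0.091 and 0.0067 over genes, and not every library correlated best with its own number. The unknown fragment counts limit what can be said of IRF4 and IRF5.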

Other observations

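GBP2, a guanylate-binding protein of the interferon-gamma response, stands on 7 identifiers, 2 of which were tested. One was at 0.626, 0.614 and 0.665 FPKM in the Y libraries and 4.39, 0.798 and 2.21 FPKM in the M libraries, with a log2 difference of 1.52 (limma adjusted p 0.168). The other was at 0.210, 0.402 and 0.517 FPKM and at 2.25, 0.559 and 1.19 FPKM, with a log2 difference of 1.46 (adjusted p 0.168). Neither passed the test, and the second reached the minimum for a test only through the M group (Y mean 0.376 FPKM). In both, M replicate 1 was the highest library and M replicate 2 the lowest of its group, the order seen for IRF1. How many of all tested genes share this order was not computed.

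CXCL11, a further chemokine induced by interferon-gamma, was at 0.175, 0.0550 and 0.271 FPKM in the Y libraries and 2.01, 0.524 and 0.384 FPKM in the M libraries. CIITA, the activator of MHC class II genes, was at 0.270, 0.285 and 0.198 FPKM against 0.725, 0.474 and 0.487 FPKM, and IDO1, which degrades tryptophan, at 0.0769, 0.110 and 0.0705 FPKM against 0.307, 0.190 and 0.331 FPKM. For all 3 the M libraries lay above the Y libraries, at levels of under 3 FPKM. CGAS, the sensor of cytosolic DNA, overlapped between the groups, with a log2 difference of -0.09. These genes were chosen after their values were seen.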
